A study of Mus musculus with 9 samples.

Results

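The adventitial fibroblast identity genes are 9 transcripts that mark the progenitor-like fibroblasts of the lung adventitia, the connective tissue sleeve around airways and vessels. They were taken by symbol from the deposited table of 43346 genes, and each of Pi16, Dpp4, Dpt, Ly6a, Ly6c1, Cd34, Cd248, Clec3b, and Entpd2 was on 1 row. The libraries came from lungs of 18-month-old male Col1a1-GFP mice on an FVB background (72 weeks by the sample labels). Each mouse had received a single intratracheal dose of saline (aged sham, 4 libraries) or bleomycin (aged bleo, 5 libraries) 30 days earlier. Both groups carried the transgene, in which the collagen I promoter drives GFP, and both were sorted as GFP+, CD45-, CD31-, and EpCAM- cells. A fibroblast in which that promoter was silent was therefore not collected, and young mice were not analysed here. The comparison of aged bleo with aged sham asks how the transcripts of collagen-producing cells in old lungs differ 30 days after injury.

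Adventitial fibroblasts lie in cuffs around bronchi and larger vessels and are told apart from the alveolar fibroblasts of the gas-exchange wall by Pi16, Dpt, and the surface proteins CD34, SCA-1 (encoded by Ly6a), and CD26 (encoded by Dpp4). Fibroblasts with this marker set are found in many organs and are regarded as a progenitor-like or universal state from which more specialized fibroblasts can arise. Several of these markers are not restricted to fibroblasts, as CD34, Ly6a, and Ly6c1 are also made by endothelial and some hematopoietic cells, which the sort was designed to remove.

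The 9 libraries held 49921946 to 68260600 counted reads, and all 9 genes passed the filter of an average count of 25, the scarcest being Dpp4 with 442 reads in its lowest library. Levels are given as CPM, counted reads scaled to a library of 1e6 reads after TMM normalization. As markers of the labelled cell type, Pdgfra, a growth factor receptor of fibroblasts, was at 912 ± 94.0 CPM in aged sham (SD, n = 4) and 676 ± 177 CPM in aged bleo (SD, n = 5), and Col1a1, whose promoter drives the reporter, was at 4154 ± 407 CPM in aged sham (SD, n = 4) and 20853 ± 4970.3 CPM in aged bleo (SD, n = 5). Of 6 genes made by fibroblasts at large, Col1a1, Col1a2, and Col3a1 were called higher and Dcn lower. Pdgfra (log2 fold change -0.43, FDR 0.112) and Lum (-0.18, FDR 0.601) were not called. Over all genes tested, 12.3% were called higher and 11.5% lower, at the limits given below. Defining markers of the depleted lineages were low, with Epcam between 0.409 and 1.201 CPM and Pecam1, which encodes CD31, between 2.44 and 6.70 CPM. Ptprc, which encodes CD45, was not near 0. It was highest in aged sham 4 (169 CPM) and aged bleo 4 (183 CPM) and at 30.6 to 92.4 CPM in the other 7 libraries.

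RefSeq promoters on GRCm38.p6 were at hand for 6 of the 9 genes (Cd34, Dpp4, Dpt, Entpd2, Ly6c1, and Pi16). Because the study examined promoters for NFATc1 motifs, the 250 bases before the start were searched on both strands for TGGAAA, a core that NFAT proteins bind. The study used a motif-finding method on a wider window on both sides of the start, so its search and this one are not alike. Of the 7 promoters of these 6 genes, 3 held it, against 18.6% of all 32851 promoters of the table. The pair listed for Ly6c1 overlaps in sequence, and the count is a description and not evidence of binding. They are shown 5′ to 3′ on the strand of the gene, with the match in capitals (TTTCCA where it lies on the other strand). The match begins 72 bases before the start of Dpt (chr1:164796413-164796662, plus strand), 211 bases before that of Entpd2 (chr2:25395624-25395873, plus strand), and 77 bases before the upstream one of the pair of starts listed for Ly6c1 (chr15:75048838-75049087, minus strand).
Dpt: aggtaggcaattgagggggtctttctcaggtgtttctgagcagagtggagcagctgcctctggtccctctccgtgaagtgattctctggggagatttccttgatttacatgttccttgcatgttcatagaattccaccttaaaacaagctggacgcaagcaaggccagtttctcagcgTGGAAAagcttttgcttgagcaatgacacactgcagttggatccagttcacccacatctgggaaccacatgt
Entpd2: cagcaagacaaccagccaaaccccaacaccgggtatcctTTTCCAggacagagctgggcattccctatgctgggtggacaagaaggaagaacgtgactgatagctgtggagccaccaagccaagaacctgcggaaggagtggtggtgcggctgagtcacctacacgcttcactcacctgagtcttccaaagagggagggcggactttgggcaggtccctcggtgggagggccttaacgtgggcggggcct
Ly6c1: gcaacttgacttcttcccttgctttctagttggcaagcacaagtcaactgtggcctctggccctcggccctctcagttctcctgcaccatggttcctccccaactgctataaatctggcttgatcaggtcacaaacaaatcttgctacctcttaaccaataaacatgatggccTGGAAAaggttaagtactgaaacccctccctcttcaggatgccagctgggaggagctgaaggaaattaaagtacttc
Other motifs were searched as well. The Entpd2 promoter held the AP-1 motif TGANTCA, which 6.75% of all promoters hold. Those of Dpp4 and Ly6c1 held TATAAA, found in 12.4%, beginning 227 bases before the Dpp4 start and 143 before the upstream Ly6c1 start. The TEAD motif GGAATG was in Dpp4 and Entpd2 (12.6% of all promoters) and the E-box CAGCTG in Dpt and Ly6c1 (13.0%). CCAAT was in Ly6c1 and Pi16 (33.8%). These letters and the levels below were not tested against each other.

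All 9 genes fell in the injured group, at the study's limits of a fold change over 1.5 with an FDR under 0.10, where FDR is the Benjamini-Hochberg adjusted p-value over the 16877 genes tested. Of those genes, 11.5% were called lower, 12.3% higher, and 23.8% in either direction. The log2 fold changes of the 9 genes ranged from -2.53 for Dpp4 to -1.16 for Cd248 with a median of -1.51, where the median over all genes tested was 0.01. For each of the 9, every aged bleo library was below every aged sham library, a separation in this direction seen in 16.1% of the genes tested. Together the 9 genes took 0.887% to 1.08% of all counted reads in aged sham and 0.172% to 0.501% in aged bleo. In bulk libraries, fewer adventitial cells and less of these transcripts per cell cannot be told apart.

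**Figure D1:**
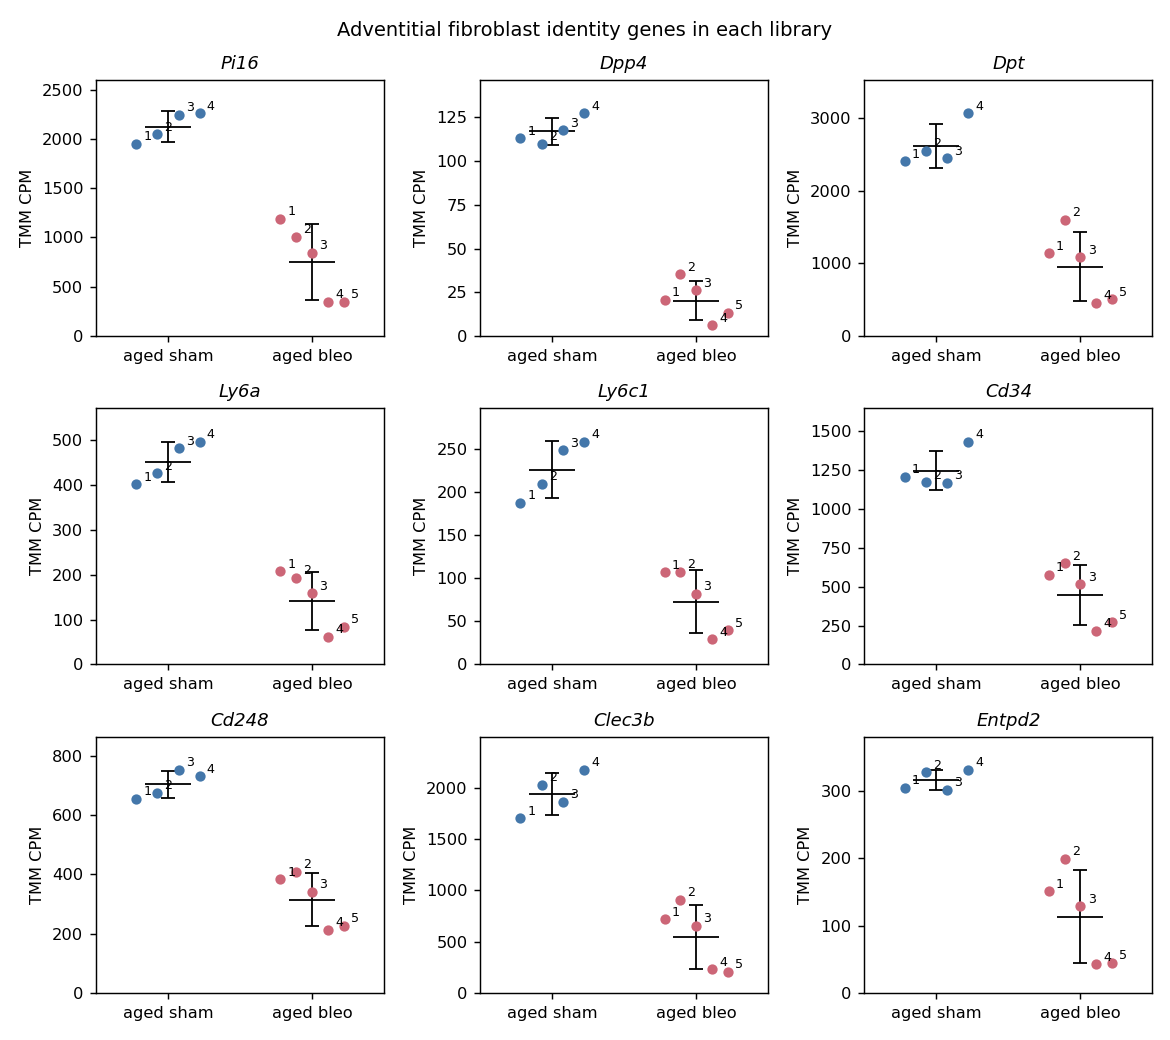
TMM-normalized CPM (vertical axes, starting at 0) of the 9 adventitial fibroblast identity genes in 4 aged sham and 5 aged bleo libraries; points are libraries with their replicate number, and bars are the mean ± SD. In every panel the aged bleo libraries lie below the aged sham libraries, with aged bleo 4 and 5 lowest.

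The 3 secreted or matrix products had the highest FPKM, a level per transcript length, of the 9 genes in aged sham. Pi16 (ENSMUSG00000024011, chromosome 17, 29318877 to 29329413), which encodes a peptidase inhibitor family protein and gives the Pi16+ fibroblast state its name, was at 1949, 2046, 2247, and 2262 CPM in aged sham 1 to 4 and 1191, 1006, 846, 349, and 348 CPM in aged bleo 1 to 5. The aged sham libraries were close to each other, and those of aged bleo fell into 3 with intermediate and 2 with low levels. The fitted difference was about 4 standard errors from 0 (log2 fold change -1.51, SE 0.37, FDR 0.0136, where SE is the standard error). Dpt (ENSMUSG00000026574, chromosome 1, 164796644 to 164824266), encoding dermatopontin, an extracellular matrix protein that binds decorin, was at 2407, 2553, 2449, and 3072 CPM in aged sham 1 to 4 and 1138, 1602, 1084, 456, and 504 CPM in aged bleo 1 to 5. Aged bleo 2 was its highest injured library, and aged bleo 4 and 5 were again lowest (log2 fold change -1.45, SE 0.35, FDR 0.0130). Clec3b (ENSMUSG00000025784, chromosome 9, 123150946 to 123157430), encoding the plasminogen-binding protein tetranectin, was at 1703, 2029.9, 1865, and 2174 CPM in aged sham 1 to 4 and 719.5, 909.7, 655, 231, and 209 CPM in aged bleo 1 to 5. Its fall was the largest of the 3 secreted products, and the groups were separated by 1.87-fold between the lowest aged sham and the highest aged bleo library (log2 fold change -1.83, SE 0.42, FDR 0.0106).

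Among the surface glycoproteins, Cd34 (ENSMUSG00000016494, chromosome 1, 194938819 to 194961279), a sialomucin of progenitor cells and endothelium, was at 1208, 1173, 1171, and 1434 CPM in aged sham 1 to 4 and 576, 650.0, 516, 215, and 271 CPM in aged bleo 1 to 5. No aged sham library was under 1171 CPM, and no aged bleo library exceeded 650.0 CPM (log2 fold change -1.48, SE 0.31, FDR 0.00716). Cd248 (ENSMUSG00000056481, chromosome 19, 5068078 to 5070637), encoding endosialin, a stromal and pericyte glycoprotein, was at 656, 675, 752, and 732 CPM in aged sham 1 to 4 and 384, 408, 342, 214, and 227 CPM in aged bleo 1 to 5. Its difference was the smallest of the 9 and had the smallest standard error (log2 fold change -1.16, SE 0.20, FDR 0.00303), and its injured libraries spanned 1.91-fold between the lowest and the highest. Ly6a (ENSMUSG00000075602, chromosome 15, 74994877 to 74998031), which encodes the stem cell antigen SCA-1, was at 402, 426, 482, and 497 CPM in aged sham 1 to 4 and 208, 193, 159, 62.0, and 84.1 CPM in aged bleo 1 to 5. Ly6c1 (ENSMUSG00000079018, chromosome 15, 75044018 to 75048830), a GPI-anchored relative of Ly6a, was at 187, 209.9, 248, and 259 CPM in aged sham 1 to 4 and 107, 107, 81.8, 29.4, and 39.5 CPM in aged bleo 1 to 5. Both fell by about the same amount, with aged bleo 4 lowest in either case (for Ly6a log2 fold change -1.68, SE 0.33, FDR 0.00564 and for Ly6c1 log2 fold change -1.63, SE 0.37, FDR 0.0100).

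The surface enzymes held both the largest fall and the highest FDR of the 9 genes. Dpp4 (ENSMUSG00000035000, chromosome 2, 62330073 to 62412231), encoding the dipeptidyl peptidase CD26 that trims peptide hormones and chemokines, was at 113, 109.8, 118, and 127 CPM in aged sham 1 to 4 and 20.6, 35.4, 26.02, 6.03, and 13.4 CPM in aged bleo 1 to 5. The lowest aged sham library was 3.10-fold above the highest aged bleo library, the widest gap among the 9, and only 53 of the 16877 genes tested had a lower log2 fold change (log2 fold change -2.53, SE 0.41, FDR 0.00230). Entpd2 (ENSMUSG00000015085, chromosome 2, 25395874 to 25401321), encoding an ectonucleotidase that hydrolyzes extracellular ATP, was at 305, 328, 302, and 331 CPM in aged sham 1 to 4 and 151, 199.5, 129, 42.5, and 44.5 CPM in aged bleo 1 to 5. It had the tightest aged sham group of the 9 (coefficient of variation 4.76%) and the widest aged bleo group (60.6%), and its fall was still beyond the thresholds (log2 fold change -1.48, SE 0.43, FDR 0.0271).

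The injured libraries kept nearly the same order in all 9 genes, with aged bleo 4 and 5 the lowest pair for each. The aged bleo mean was 17.3% of the aged sham mean for Dpp4, 28.0% for Clec3b, 35.2% for Pi16, and 44.7% for Cd248. In aged sham, the coefficients of variation ran from 4.76% to 14.7%, and in aged bleo from 28.5% for Cd248 to 60.6% for Entpd2. Expressed as a percentage of the aged sham mean, the median over the 9 genes was 46.2% in aged bleo 1, 47.5% in aged bleo 2, 39.8% in aged bleo 3, 13.7% in aged bleo 4, and 17.5% in aged bleo 5. Aged bleo 2 was the highest injured library in CPM for 7 of the genes and aged bleo 1 for the other 2, Pi16 and Ly6a. For Ly6c1 these libraries were nearly equal, at 107.5 CPM in aged bleo 2 and 106.9 CPM in aged bleo 1. In FPKM aged bleo 1 was the higher for Ly6c1 (27.5 against 26.9). Aged bleo 4 was lowest for 7, and aged bleo 5 for Pi16 and Clec3b. Dpp4 in aged bleo 4 was the lowest value, at 5.16% of the aged sham mean, and Entpd2 in aged bleo 2 the highest, at 63.1%. Cd248 kept the largest share in the low libraries, with 30.4% in aged bleo 4 and 32.2% in aged bleo 5.

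**Figure D2:**
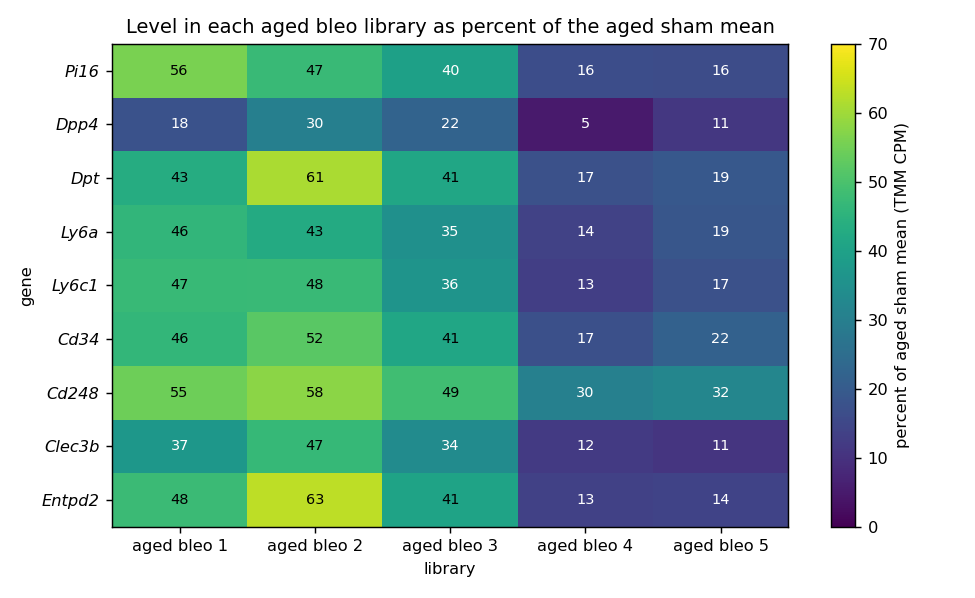
Level of each gene (rows) in each aged bleo library (columns) as a percentage of its aged sham mean in TMM CPM, printed in the cell and shown by colour from 0 to 70 percent. The columns of aged bleo 4 and 5 are darkest, with medians of 13.7% and 17.5%, and Dpp4 is the darkest row.

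Whether the 9 genes fell to the same extent was asked with the log2 ratio of each pair of them within a library, which is free of library scaling, by two-sided exact permutation over the 126 ways to assign 4 and 5 libraries. Of 36 pairs, 12 differed at an adjusted p under 0.05, and 7 of these 12 involved Dpp4. The log2 ratio of Dpp4 to Cd248 was -2.59 ± 0.07 in aged sham (SD, n = 4) and -4.14 ± 0.63 in aged bleo (SD, n = 5), without overlap between the groups (exact permutation p = 0.00794, the smallest these group sizes allow, adjusted over 36 pairs 0.0476). Dpp4 was not separated from Clec3b, the gene with the second largest fall (difference of log2 ratios -0.69, exact permutation p = 0.0476, adjusted 0.101). Clec3b in turn fell further than Cd248, Cd34, Dpt, and Entpd2 (for each, exact permutation p = 0.0159, adjusted 0.0476). No difference was found in the ratio of Ly6a to Ly6c1, which was 1.01 ± 0.07 in aged sham (SD, n = 4) and 0.99 ± 0.10 in aged bleo (SD, n = 5) on the log2 scale (exact permutation p = 0.730, adjusted 0.767). The ratio of Dpt to Cd34 was 1.07 ± 0.06 in aged sham (SD, n = 4) and 1.07 ± 0.15 in aged bleo (SD, n = 5) on that scale (exact permutation p = 0.952, adjusted 0.952).

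Levels of different genes were compared per gene length with the deposited FPKM values. In aged sham, Clec3b (822 ± 81.0 FPKM, SD, n = 4) and Dpt (636 ± 65.4 FPKM) were the 6th and 10th most abundant of all protein-coding genes. They were followed by Pi16 (224 ± 15.3 FPKM), Ly6a (157 ± 14.7), Cd248 (115 ± 7.34), Cd34 (71.6 ± 6.05), Entpd2 (62.3 ± 2.76), and Ly6c1 (56.5 ± 7.94), with Dpp4 far below at 7.76 ± 0.402 FPKM. Neighbours in this order did not overlap in their libraries, except Clec3b with Dpt and Entpd2 with Ly6c1. In aged bleo, Dpt (236 ± 115 FPKM, SD, n = 5) and Clec3b (234 ± 131 FPKM) had nearly the same mean, at ranks 33 and 35 of the protein-coding genes, and Dpt was above Clec3b in 3 of 5 libraries. Pi16 went from rank 56 to 162 of the protein-coding genes by mean FPKM, Cd34 from 207 to 674, and Dpp4 from 2599 to 9270. Dpp4 remained the least abundant at 1.36 ± 0.737 FPKM, and the ranges of all neighbours in the aged bleo order overlapped except those of Ly6c1 and Dpp4. Cd248, which fell least, moved above Ly6a in mean FPKM, at 52.6 ± 14.1 against 49.99 ± 22.6 FPKM, and did so in 3 of 5 libraries.

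**Figure D3:**
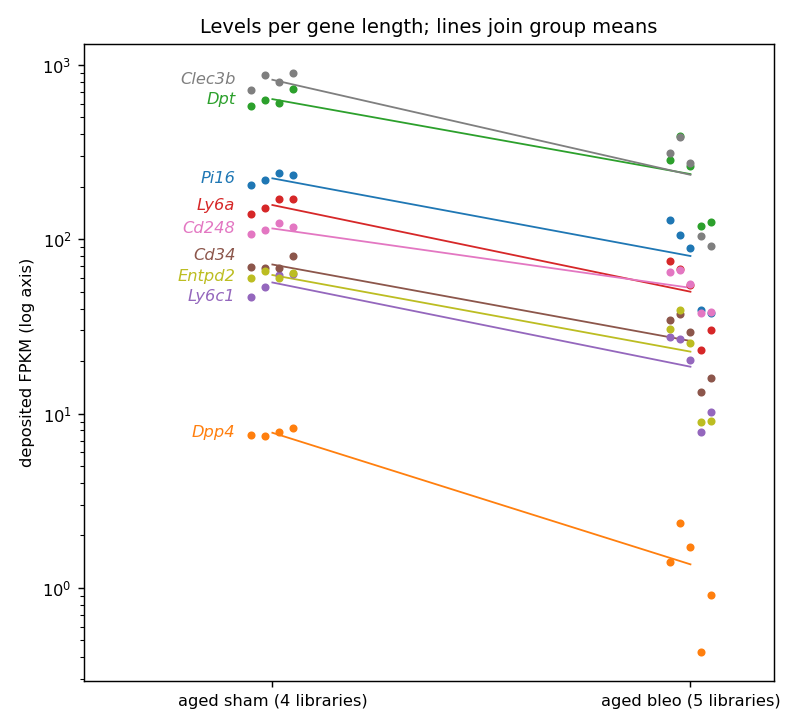
Deposited FPKM (log axis) of the 9 genes in aged sham and aged bleo, 1 colour per gene; points are libraries, and lines join the group means. The order of the means is kept from aged sham to aged bleo apart from the pairs Clec3b with Dpt and Ly6a with Cd248, and Dpp4 is lowest in both groups.

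Ly6a and Ly6c1 lie 49.1 kb apart (start to start) on the minus strand of chromosome 15 in a cluster of related genes, so the other Ly6 genes there were read as well. Of 9 such genes, 5 were abundant enough to test, and 3 of these 5 were called lower, against 11.5% of all genes tested. All 3 were at levels near 1 or 2 CPM in aged sham. Ly6i, the gene next to Ly6a, was at 1.44 ± 0.175 CPM in aged sham (SD, n = 4) and 0.480 ± 0.110 CPM in aged bleo (SD, n = 5) (log2 fold change -1.58, SE 0.21, FDR 9.52e-04). Ly6k (log2 fold change -1.001, SE 0.37, FDR 0.0613) and Ly6d (log2 fold change -1.64, SE 0.57, FDR 0.0514) passed with overlapping libraries. Ly6e, which is made by many cell types and lies on the opposite strand 39.8 kb from Ly6a, was the only abundant neighbour, at 186 ± 11.1 CPM in aged sham (SD, n = 4) and 146 ± 24.2 CPM in aged bleo (SD, n = 5), and its difference was under the fold change threshold (log2 fold change -0.35, SE 0.12, FDR 0.0468). Ly6c2, the closest relative of Ly6c1, was at 2.43 ± 0.914 CPM in aged sham (SD, n = 4) and 2.02 ± 1.21 CPM in aged bleo (SD, n = 5) and was not called (log2 fold change -0.26, SE 0.43, FDR 0.662). Ly6h, Ly6f, Ly6g, and Lypd2 averaged under 25 counts and were not tested.

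Sequence shared with other genes, through related copies or overlapping exons, limits how well some of these counts separate. Of the distinct 50-base windows in the Ly6c1 transcripts of GENCODE M21, 32.8% also occur in transcripts of another gene, mainly Ly6c2 and Ly6a, and for Ly6a the share was 19.0%. For Entpd2 it was 25.9%, all in Npdc1, whose exons overlap it on the same strand. Npdc1 itself was at 245 ± 10.4 CPM in aged sham (SD, n = 4) and 139 ± 47.7 CPM in aged bleo (SD, n = 5) and fell less (log2 fold change -0.82, SE 0.24, FDR 0.0250). Gm16897, a noncoding gene antisense to Cd34, was at 103 ± 11.6 CPM in aged sham (SD, n = 4) and 37.4 ± 16.4 CPM in aged bleo (SD, n = 5), and its fall was close to that of Cd34 (log2 fold change -1.46, SE 0.31, FDR 0.00789). Whether strand was used in counting is not stated, so reads of Cd34 and Gm16897 may not be separated where their exons overlap. These last genes were named for their overlap with the 9, after the values were seen. For Dpt, Cd248, and Clec3b, no 50-base window was shared, and for Pi16, Dpp4, and Cd34 the share was 2.14% to 3.88%.

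In a wider list of 20 genes also known from adventitial fibroblasts, 19 had a log2 fold change below 0. The list was chosen with earlier results of these data known. Of the 20, 17 were called lower and none higher, against 11.5% and 12.3% of all genes tested. Their median log2 fold change was -1.44. Every aged bleo library was below every aged sham library in 16.1% of all genes tested and in 15 of the 20 in this list. Its matrix genes included Dcn, encoding the proteoglycan decorin and also among the 6 genes made by fibroblasts at large, at 8122 ± 558 CPM in aged sham (SD, n = 4) and 2795 ± 1249 CPM in aged bleo (SD, n = 5) (log2 fold change -1.54, FDR 0.00667), and Col14a1, encoding a collagen of fibril surfaces, at 3556 ± 236 CPM in aged sham (SD, n = 4) and 1441 ± 853 CPM in aged bleo (SD, n = 5) (log2 fold change -1.30, FDR 0.0444). Scara5, a ferritin receptor, fell from 1380.3 to 390.1 CPM in the means (log2 fold change -1.82, FDR 0.0141), and Ackr3, an atypical receptor that scavenges CXCL12, from 476 to 115 CPM (log2 fold change -2.04, FDR 0.00243). The largest falls of the list on the log2 scale were those of Efhd1 (-2.22, FDR 0.00340) and Ackr3. Among the other genes called lower were Pcolce2, an enhancer of procollagen processing, at -1.77 (FDR 0.0190), Has1, a hyaluronan synthase, at -1.71 (FDR 0.0209), and Sema3c, a secreted guidance cue, at -1.65 (FDR 0.00338). Anxa3 had the lowest FDR of the list, at 6.17e-05 with a log2 fold change of -1.53.

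Of the genes of secreted signals among the 20, Ccl11, Il33, and Tslp were called lower, and differences between their falls were not tested. Ccl11, the eosinophil chemoattractant eotaxin, was at 248 ± 21.5 CPM in aged sham (SD, n = 4) and 71.8 ± 43.6 CPM in aged bleo (SD, n = 5) (log2 fold change -1.79, FDR 0.0126). Il33, an alarmin through which adventitial cells support type 2 lymphoid cells, was only just past the thresholds, at 314 ± 46.0 CPM in aged sham (SD, n = 4) and 208 ± 68.1 CPM in aged bleo (SD, n = 5) with overlapping libraries (log2 fold change -0.60, FDR 0.0886). Tslp, another type 2 cytokine, was scarce, at 8.34 ± 0.511 CPM in aged sham (SD, n = 4) and 4.98 ± 1.499 CPM in aged bleo (SD, n = 5) (log2 fold change -0.74, FDR 0.0211). The 3 genes not called were the microfibril genes Fbn1 (log2 fold change 0.25, FDR 0.270) and Mfap5 (-0.11, FDR 0.653) and the Hedgehog target Gli1 (-0.41, FDR 0.0968), which was under the fold change threshold. These 3 were chosen for naming after their values were seen.

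The alveolar and fibrotic fibroblast lists gave other counts. Of 10 genes of alveolar fibroblasts, 4 were called lower and 1 higher, with a median log2 fold change of -0.45. Over all genes tested, 11.5% were called lower and 12.3% higher. The libraries overlapped for 7 of the 10, a share like that over all genes tested (11444 of 16877). Inmt, a methyltransferase of lung fibroblasts (log2 fold change -1.83, FDR 0.0141), and Tcf21, a transcription factor of lung mesenchyme (-1.10, FDR 0.0121), fell, as did Figf (-1.06, FDR 0.0161) and Ces1d (-0.78, FDR 0.0543), while the basement membrane gene Npnt rose (0.87, FDR 0.0469). Of 10 markers of the fibrotic fibroblast state, 8 were called higher and none lower, with a median log2 fold change of 3.80. The 2 not called, Sfrp1 (0.51, FDR 0.0293) and Acta2 (-0.58, FDR 0.0629), were under the fold change threshold. Acta2 was only just short of being called lower. Within aged bleo, the summed CPM of the 9 identity genes and of the 10 fibrotic markers ran in nearly opposite orders. The identity genes summed to 4495, 5112, 3838, 1604, and 1739 CPM in aged bleo 1 to 5, and the fibrotic markers to 26521, 19178, 29072, 34988, and 37737 CPM. Aged bleo 2 had the most of the first and the least of the second, and aged bleo 4 and 5 the reverse, both being shares of the same libraries. Most of the fibrotic sum was Col1a1, at 13560 CPM in aged bleo 2 and 24553 CPM in aged bleo 4. Cthrc1, Tnc, Col12a1, Grem1, and Spp1 were likewise lowest in aged bleo 2 and highest in aged bleo 4 and 5. Other markers were not, as Postn (949 CPM) and Acta2 (1044 CPM) were lowest in aged bleo 4, Sfrp1 in aged bleo 3, and Lrrc15 in aged bleo 1. Differences between the lists were not tested.

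**Figure D4:**
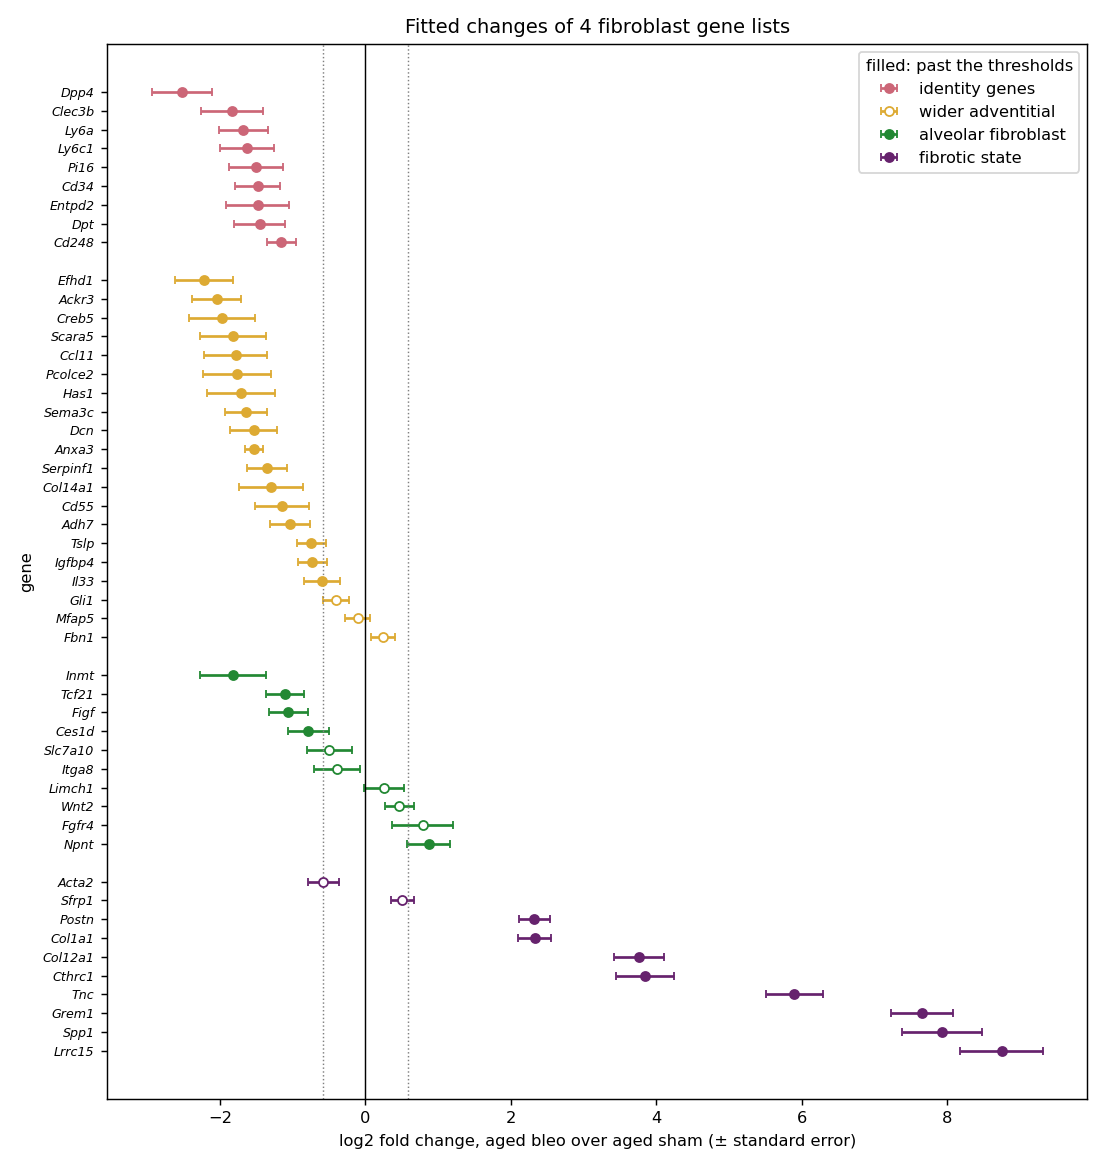
Fitted log2 fold change of aged bleo over aged sham with its standard error for each gene of 4 fibroblast lists; filled points passed the thresholds, and dotted lines mark a fold change of 1.5 in either direction. The 9 identity genes and 17 of the 20 wider adventitial genes are filled and left of 0, alveolar genes lie on both sides, and 8 of 10 fibrotic markers are filled and right of 0.

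Since Cd34, Ly6a, and Ly6c1 are also endothelial genes, the endothelial list was read beside them. Its 9 genes included Tek, the angiopoietin receptor TIE2, which made up most of the list's sum and fell with the adventitial genes, at 161 ± 12.9 CPM in aged sham (SD, n = 4) and 28.9 ± 18.8 CPM in aged bleo (SD, n = 5) (log2 fold change -2.48, FDR 0.00425). With it the list summed to 168 to 201 CPM in aged sham and 34.2 to 77.2 CPM in aged bleo. Leaving out Tek, a choice made after its values were seen, the other 8 summed to 18.6 to 22.6 CPM in aged sham and 21.5 to 26.4 CPM in aged bleo, with overlapping ranges. Of the 8 endothelial genes tested, Kdr (log2 fold change 0.61, FDR 0.04998) and Egfl7 (0.88, FDR 0.04998) were called higher, Tek lower, and the others, Pecam1 and Cdh5 among them, were not called. The 8 leukocyte genes summed to 148 to 533 CPM in aged sham and 157 to 821 CPM in aged bleo, where aged bleo 4 stood apart. Of the 8, 2 (Laptm5 and Cd48) were called higher, both with overlapping libraries. In a fit without aged sham 4 and aged bleo 4, which had the highest leukocyte sums of their groups, the 9 identity genes were called lower with a median log2 fold change of -1.32. The libraries kept in that fit still held leukocyte sums from 148 CPM in aged sham 1 to 288 CPM in aged sham 3, so it does not test their part. Mesothelial genes summed to 28.6 to 84.3 CPM in aged sham and 35.5 to 126 CPM in aged bleo, and none of the 6 tested was called. Of 8 mural genes, which mark pericytes and smooth muscle, 4 were called higher and 3 lower (Myh11, Cnn1, and Kcnj8). Notch3 (log2 fold change 1.21, FDR 0.00804) was called higher and Myh11 lower with overlapping libraries. The others called higher, Trpc6, Cox4i2, and Higd1b, had means of only 0.554, 0.712, and 0.348 CPM in aged sham. The 8 genes summed to 1241 to 2380.3 CPM in aged sham and 529.9 to 1492 CPM in aged bleo. Over the 5 aged bleo libraries the mural sum ran in the same order as the sum of the 9 identity genes. Myh11 was the largest part of the mural sum in every library and kept that order by itself. The other mural genes did not keep it. Cnn1 peaked in aged bleo 2, Notch3, Cspg4, and Kcnj8 in aged bleo 1, and Trpc6, Cox4i2, and Higd1b in aged bleo 5. Epithelial genes summed to 13.1 to 111 CPM in aged sham and 16.3 to 60.6 CPM in aged bleo, and of the 7 tested only Ager was called, as lower (log2 fold change -3.32, FDR 9.99e-04). The part of endothelial, leukocyte, mural, mesothelial, or epithelial transcripts in the differences of the 9 genes was not tested.

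**Figure D5:**
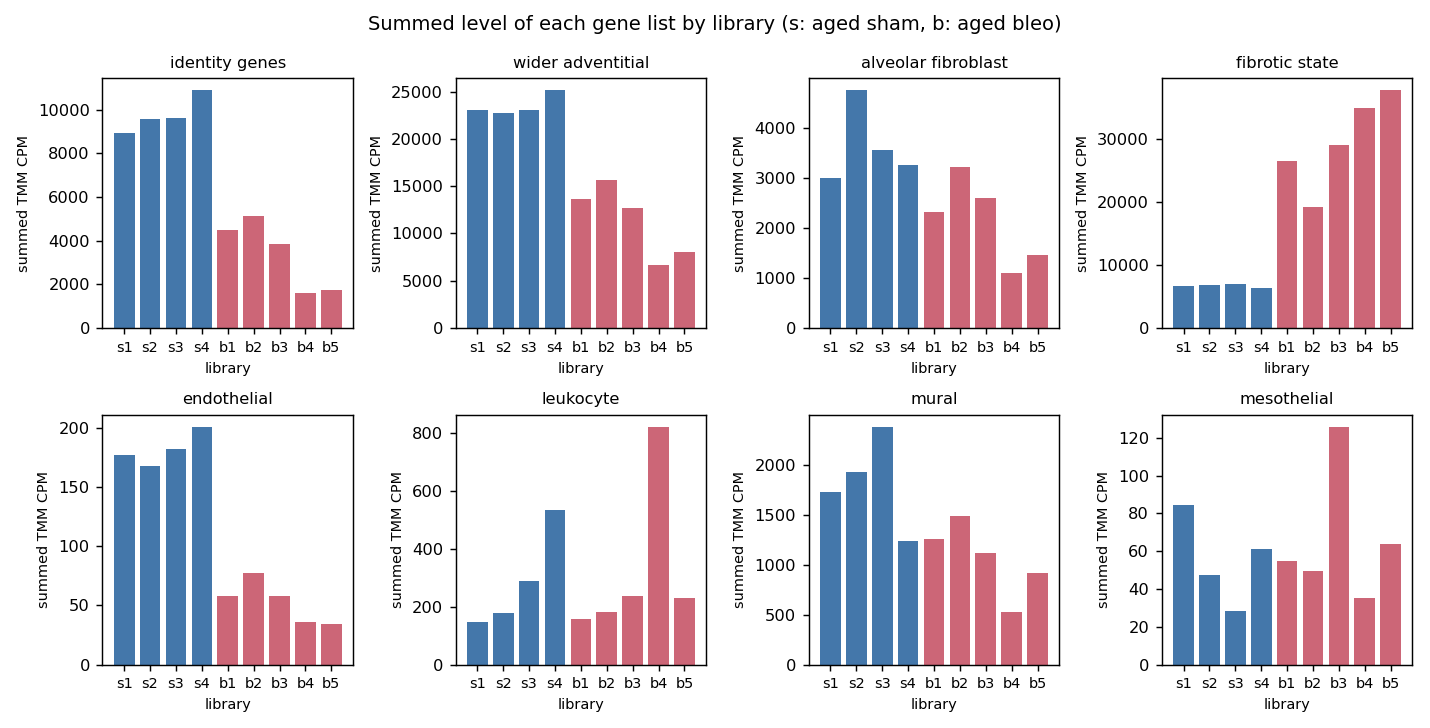
Summed TMM CPM (bars, from 0) of the genes of 8 lists in each library, s1 to s4 for aged sham and b1 to b5 for aged bleo. The 2 adventitial lists and the endothelial list, which is mostly Tek, are lower in every aged bleo library than in the aged sham libraries, the fibrotic list is higher in every one, and the leukocyte list is highest in b4 and s4.

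All tests of fold change were made with edgeR over all genes, and 21 alternatives with 3 or more libraries in each group called the 9 genes lower as well. Every library name closes with a number of unstated meaning, which is 4 in aged sham and in aged bleo 4, 5 in aged bleo 1, 2, and 3, and 6 in aged bleo 5. With it as a covariate, the difference rests on aged bleo 4 alone against aged sham, so that it is no check of the 9 calls, and the log2 fold changes were larger, from -1.72 for Cd248 to -4.28 for Dpp4 and -2.61 for Pi16.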

How the data were processed

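RNA-Seq libraries of sorted Col1a1-GFP cells (4 aged sham, 5 aged bleo) were grouped by their sample labels. The authors deposited raw read counts per gene and FPKM values. The authors' FPKM are per kilobase and imply a library size of 2.27 to 2.42 times the counts summed over genes. The submitters' processing notes name STAR 2.5.2b, Subread featureCounts, and GRCm38 (mm10). The strand setting of the counting is not given in the sources used here. Of the identifiers shared with GENCODE M21, 78.9% have the same start and end there.

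Genes averaging 25 counts or more were tested with edgeR 4.0.16 (TMM, glmQLFit, and glmQLFTest, two-sided, no covariate) in R 4.3.3, following the filter and thresholds of the study, which used a moderated test. The SE is the log2 fold change divided by the square root of the F statistic. The alternatives were DESeq2 1.42.0, limma 3.58.1 on log2 CPM (prior count 2), log2(FPKM + 0.1), and log2(FPKM + 1), other normalizations, filters, and thresholds, left-out libraries, a replicate block, and the library name number. No pair of libraries within a group was a duplicate (chi-square per degree of freedom 30.9 to 468). The tests were tried on simulated counts with the same spread for all genes and few changed genes. These settings differ from the data, so the trial checks the code and not the calls. The ratios between genes were chosen after the data were seen, and so was the 50-base window. The 9 genes and all lists were chosen with earlier results of these data known. All 9 genes are named, as are the Ly6 genes, defining markers of other cells, and genes of each list that passed the thresholds or had its highest levels. Lum, Sfrp1, and Acta2 were named after their values were seen. Counting error alone leaves aged bleo 4, the deepest library, with 0.0409 CPM and the shallowest with 0.0605 CPM as the level that a count of 0 allows (3 counts).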

Additional observations from a re-analysis of the deposited data

Results flagged for a closer look

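In 3 of 38 groups of values searched (the 9 genes and 10 list sums in each treatment), 1 library stood apart from the rest of its group by Dixon's criterion, which chance exceeds in about 5% of groups. Cd34 was at 1434 CPM in aged sham 4 and at 1171 to 1208 CPM in the other aged sham libraries. The wider adventitial list summed to 25151 CPM in aged sham 4 and to 22775 to 23089 CPM in the other aged sham libraries. The leukocyte list summed to 821 CPM in aged bleo 4 and to 157 to 238 CPM in the other aged bleo libraries. Aged sham 4 was also the highest aged sham library for 8 of the 9 identity genes, all but Cd248, and without it their median log2 fold change was -1.48.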

How the results depend on the processing

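All 9 genes were lower and past the thresholds under 21 alternatives with 3 or more libraries in each group. They were lower too with the library name number as a covariate, which is no check of the calls because aged bleo 4 alone then stands against aged sham. The number whose libraries did not overlap was 9 in FPKM and under the other normalizations. It was also 9 with libraries left out, but leaving out libraries can hardly make separate groups overlap, so that is no check. When single libraries were left out, the count of the 9 called stayed at 9, and that of the 20 wider adventitial genes was 16 to 17. Leaving out single libraries moved the log2 fold change of Dpp4 between -2.83 and -2.30 and that of Cd248 between -1.27 and -1.06. The highest FDR was 0.0597, for Entpd2. The count of genes called over all genes, 4022 in the test reported, ranged from 3525 to 4597 with a library left out. It was 1785 on log2(FPKM + 1), 2158 at the stricter limits (fold change over 2, FDR under 0.05), and 6394 with the library name number as a covariate. The number of wider adventitial genes called was 14 at the stricter thresholds and 15 on log2(FPKM + 1). The highest FPKM among the 9 genes was 106 times the lowest in aged sham means, and 102 to 109 times with a library left out. Replicate numbers are shared by both groups, but same-numbered libraries come from different mice, and their deviations from the group means correlated at 0.09, 0.06, -0.13, and 0.33 for numbers 1 to 4, so the numbers were not taken to pair them. With the replicate block, 3536 genes, 9 of the 9, and 16 of the 20 were called. At these depths counting error is small for the 9 genes, and the number of mice limits the precision.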
